A study of Mus musculus with 6 samples.

Results

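The general transcription factors and the Mediator complex were represented by 70 of the 12718 genes for which RNA polymerase II occupancy had been counted in mouse adrenal glands. The members were all the symbols consisting of Med or Taf followed by a digit, together with the symbols starting with Gtf2 or Gtf3. No measured value was used to choose them. They comprised 28 Mediator genes, 14 TFIID genes, 7 other TAF-named genes, 12 genes of TFIIA, TFIIB, TFIIE, TFIIF and TFIIH, 3 genes of the TFII-I family and 6 genes of TFIIIA and TFIIIC. The 7 other TAF-named genes encode factors outside TFIID, namely the RNA polymerase I factor SL1 (Taf1a, Taf1b, Taf1c and Taf1d), the coactivator complex SAGA (Taf5l and Taf6l) and the RNA-binding protein Taf15.

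Chromatin from the adrenal glands of female 129 sv X CD1 mice aged 10 to 14 months was immunoprecipitated with an antibody against the amino-terminal domain of RPB1, the catalytic core of RNA polymerase II. The samples were 3 wild-type (WT) mice and 3 Armc5(-/-) mice (KO), with a separate mouse number for each of the 6 libraries. Armc5 encodes a substrate adaptor of a ubiquitin ligase that acts on RPB1, and the deleted gene itself is not analysed here. The comparison asks how RPB1 is distributed over genes with and without Armc5.

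RNA polymerase II cannot find a promoter unaided. TFIID, made of the TATA-binding protein and TAFs, recognises the core promoter, TFIIA and TFIIB stabilise it there, TFIIF brings the polymerase, and TFIIE and TFIIH open the DNA and release the enzyme. Mediator joins this assembly to activators bound at enhancers through its head, middle and tail modules, and a detachable kinase module restrains it. The promoters of these genes are thus at once the sites where the machinery works and the source of its own subunits, which in the adrenal cortex and medulla serve the genes of steroid and catecholamine synthesis as they serve all others.

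The promoters of 7 members are shown for their RPB1 values. None of the 7 passed a test between genotypes, and no promoter was listed for Taf4b, the only member that did. Taf4, Taf12, Taf13 and Med22 were the members with the highest WT counts at the transcription start site (TSS). Taf10 and Med31 were 2 of the 4 with the lowest TSS signal relative to the gene body. At the TSS of Gtf2b the libraries fell into groups that crossed the genotypes. Sequences are the bases upstream of the annotated start, 5′ to 3′ on the coding strand, from RefSeq on GRCm38.p6, in lower case with the motifs of the search described next in capitals.
Taf4, chr2:179976647-179976896, minus strand: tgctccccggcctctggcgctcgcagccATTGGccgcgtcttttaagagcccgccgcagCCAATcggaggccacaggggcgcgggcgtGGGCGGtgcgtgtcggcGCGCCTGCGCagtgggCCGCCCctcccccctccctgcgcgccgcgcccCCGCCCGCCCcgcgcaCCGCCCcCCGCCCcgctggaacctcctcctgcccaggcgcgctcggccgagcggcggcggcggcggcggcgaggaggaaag
Taf12, chr4:132274125-132274354, plus strand: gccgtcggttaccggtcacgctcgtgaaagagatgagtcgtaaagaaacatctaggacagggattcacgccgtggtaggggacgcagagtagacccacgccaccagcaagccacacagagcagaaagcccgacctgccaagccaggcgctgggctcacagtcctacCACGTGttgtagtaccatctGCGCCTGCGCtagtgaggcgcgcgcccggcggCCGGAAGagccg
Taf13, chr3:108571449-108571698, plus strand: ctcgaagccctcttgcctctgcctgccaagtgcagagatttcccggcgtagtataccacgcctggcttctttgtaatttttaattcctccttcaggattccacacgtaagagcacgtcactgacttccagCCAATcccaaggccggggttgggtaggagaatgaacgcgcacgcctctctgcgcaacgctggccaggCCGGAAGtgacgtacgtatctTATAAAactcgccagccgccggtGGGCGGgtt
Med22, chr2:26910643-26910892, minus strand: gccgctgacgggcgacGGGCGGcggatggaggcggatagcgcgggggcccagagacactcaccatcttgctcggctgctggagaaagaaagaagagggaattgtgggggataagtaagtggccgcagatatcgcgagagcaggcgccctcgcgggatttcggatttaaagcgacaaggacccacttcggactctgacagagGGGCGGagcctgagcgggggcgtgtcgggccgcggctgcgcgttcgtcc
Taf10, chr7:105744376-105744588, minus strand: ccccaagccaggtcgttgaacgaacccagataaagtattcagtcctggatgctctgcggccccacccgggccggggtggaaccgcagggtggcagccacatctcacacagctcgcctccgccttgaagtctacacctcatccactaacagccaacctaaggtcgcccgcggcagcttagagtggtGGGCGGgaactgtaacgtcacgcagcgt
Med31, chr11:72215593-72215842, minus strand: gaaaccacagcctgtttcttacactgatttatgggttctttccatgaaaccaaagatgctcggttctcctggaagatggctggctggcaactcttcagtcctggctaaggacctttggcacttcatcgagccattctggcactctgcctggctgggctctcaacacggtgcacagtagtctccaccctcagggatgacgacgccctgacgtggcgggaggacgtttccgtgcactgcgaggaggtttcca
Gtf2b, chr3:142764997-142765246, plus strand: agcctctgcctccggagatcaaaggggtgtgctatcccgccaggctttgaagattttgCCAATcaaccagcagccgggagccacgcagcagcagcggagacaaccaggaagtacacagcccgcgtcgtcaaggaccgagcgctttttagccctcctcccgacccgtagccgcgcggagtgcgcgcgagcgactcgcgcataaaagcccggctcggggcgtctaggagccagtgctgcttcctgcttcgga

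The upstream window, at most 250 bases, was searched on both strands for the TATA motif TATAAA, the CCAAT motif, the GC box GGGCGG, the ETS motif CCGGAAG, the NRF1 motif (GCGC followed after any single base by TGCGC), the cyclic AMP element (CRE) TGACGTCA and the E-box CACGTG, and overlapping matches were each counted. A promoter was listed for 62 of the 70 members, and Taf4b was not among them. The GC box was in 38 of the 62 members' windows (61.3%) and in 61.2% of the 10019 windows of all genes, and CCAAT was in 22 (35.5%) against 36.7%. The ETS motif was in 18 (29.0%) against 14.1%, the NRF1 motif in 10 (16.1%) against 8.55%, the E-box in 10 (16.1%) against 8.47%, the TATA motif in 8 (12.9%) against 6.10% and the CRE in 3 (4.84%) against 2.86%. Taf4 held 6 GC boxes and an NRF1 motif, Taf13 a TATA motif with CCAAT, GC box and ETS motifs, and Med31 none of the 7 motifs. Median GC content was 59.2% in the members' windows and 60.4% in all windows. Another gene started on the opposite strand within 1 kb of the start of 20 of the 62 members (32.3%), as did 23.3% of all genes with a known strand. Med22, whose opposite neighbour is the ribosomal protein gene Rpl7a, and Taf4, whose opposite neighbour is 4921531C22Rik, were among them. The counts of such pairs cannot be told apart near the start.

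The summed counts of the 3 regions ranged from 14511177 to 28190157 per library. WT replicates 1 and 2 and KO replicate 1 were the 3 shallower libraries. A single repeat-rich gene model, Gm10800, took 10.9 to 25.1% of TSS counts in those 3 and 2.67 to 4.66% in the 3 deeper ones, and the members together took 0.543 to 0.694% and 0.795 to 0.825%. Values are CPM, the count of a gene relative to its library total scaled by the trimmed mean of M values (TMM) within each region's table, so a change of RPB1 at all genes alike would not appear. All 7 adrenal cortex markers (Star, Cyp11a1, Hsd3b1, Cyp21a1, Cyp11b1, Nr5a1 and Mc2r) were in the tables, with a summed gene body level of 1253 to 2550 CPM in WT and 1639 to 2037 CPM in KO. The 5 medulla markers summed to 229 to 447 CPM in WT and 312 to 834 CPM in KO, and the fibroblast markers Pdgfra and Col1a1 (2 of 4 present) to 84.6 to 253 CPM and 61.6 to 73.7 CPM. Only in the fibroblast list did every KO sum lie below every WT sum. Endothelial markers (3 of 4 present) summed to 282 to 379 CPM in WT and 256 to 302 CPM in KO, macrophage markers (2 of 4) to 83.2 to 117 and 64.6 to 95.4 CPM, and the adipocyte marker Fabp4 (1 of 3) to 9.23 to 41.3 and 24.3 to 27.0 CPM, while none of the 3 lymphocyte markers was in the tables. No marker passed the gene body test between genotypes, and the part of cell composition in the results was not tested. In whole glands, fewer cells of a type and less RPB1 per cell cannot be told apart.

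In WT glands the members' TSS carried more RPB1 than that of the typical gene. Their median TSS level was 90.9 CPM, with a range of 14.99 to 345 CPM, against 54.4 CPM over all 12682 tested genes. The TFIID genes had the highest class median, 126 CPM, followed by 111 CPM for TFIIA to TFIIH and 105 CPM for TFIIIA and TFIIIC. The Mediator genes lay lower at 68.0 CPM, the TFII-I family at 52.2 CPM and the other TAF-named genes at 41.4 CPM. Within each class the genes spread widely, from 16.3 to 345 CPM in TFIID and from 18.0 to 305 CPM in Mediator, so the class ranges overlapped. These levels take the counting window at every start to be of one width, which is not given in the sources used here.

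**Figure D1:**
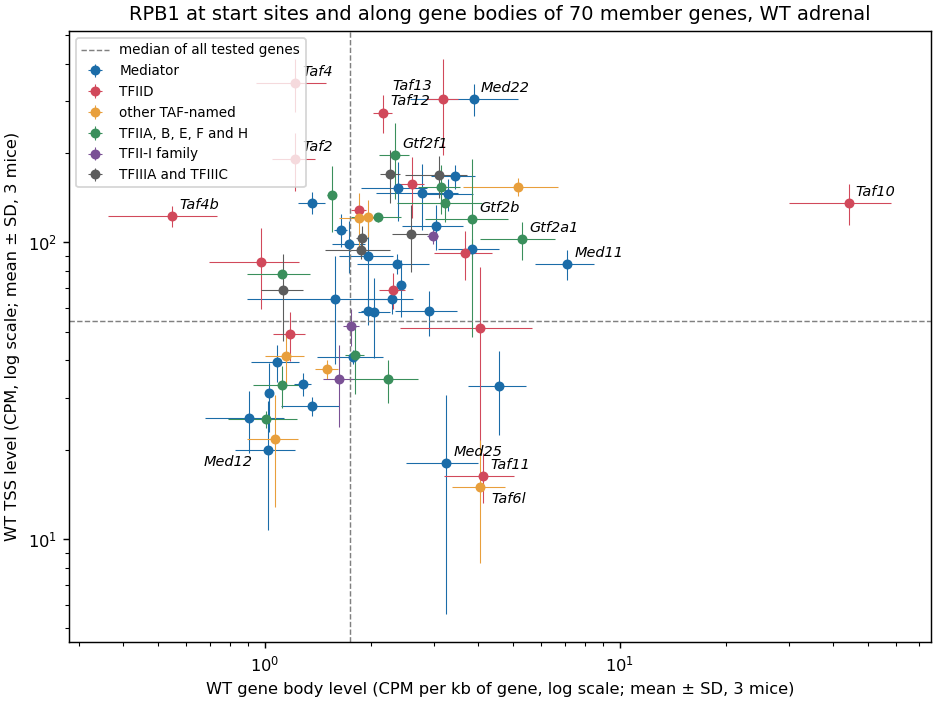
Mean ± SD WT level of each of the 70 members, coloured by class, with the gene body level in CPM per kb on the horizontal axis and the TSS level in CPM on the vertical axis, both logarithmic. Taf4, Med22 and Taf13 lie above 300 CPM at the TSS, and Taf10 stands apart to the right at 44.2 CPM per kb.

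Among the TFIID genes, Taf4, whose product holds the TFIID core together, had the highest TSS level of all members, at 356, 270 and 408 CPM in WT against 244, 386 and 360 CPM in KO. Its histone-fold partner Taf12 had 237, 268 and 316 CPM in WT against 210, 248 and 255 CPM in KO. Taf13, the partner of Taf11, had 252, 234 and 430 CPM in WT against 212, 317 and 308 CPM in KO. For each of the 3 genes the WT and KO ranges overlapped. Taf11 had the lowest level of the class, at 19.6, 13.4 and 16.0 CPM in WT against 11.8, 13.7 and 14.3 CPM in KO, far below its partner Taf13 in every library. Taf1, the largest TFIID subunit, had 59.3, 42.4 and 45.1 CPM in WT against 61.3, 47.9 and 40.6 CPM in KO. Taf7, which binds Taf1, had 106, 72.4 and 97.3 CPM in WT against 102, 105 and 104 CPM in KO, inside the WT range.

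Among the Mediator genes, the head subunit Med22 had the highest TSS level, at 323, 262 and 329 CPM in WT against 286, 321 and 322 CPM in KO. Med14, the scaffold between the modules, had 130, 149 and 129 CPM in WT against 126, 129 and 128 CPM in KO. Med1, the middle-module contact of nuclear receptors, had 147, 110 and 184 CPM in WT against 140, 157 and 162 CPM in KO. Of these genes, Med14 alone had all its KO values below its WT values, by a narrow margin. Med23, a tail subunit, had 36.5, 33.1 and 30.4 CPM in WT against 44.5, 29.3 and 31.8 CPM in KO. Med12 of the kinase module had 29.4, 19.6 and 10.9 CPM in WT against 30.4, 14.0 and 16.1 CPM in KO. The lowest Mediator level was that of Med25, an activator-binding subunit, at 20.7, 29.0 and 4.48 CPM in WT against 16.9, 7.94 and 15.4 CPM in KO. Med12 and Med25 both varied more among WT mice than between genotypes.

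Of the remaining factors, Gtf2f1, the large subunit of TFIIF, had the highest level of the TFIIA to TFIIH genes, at 174, 154 and 261 CPM in WT against 199, 314 and 301 CPM in KO. Gtf2h2, a TFIIH core subunit, had the lowest, at 24.0, 24.8 and 27.2 CPM in WT against 28.7, 29.3 and 31.5 CPM in KO. Gtf2h1, also of TFIIH, had 126, 120 and 118 CPM in WT against 116, 117 and 141 CPM in KO. The KO values of Gtf2h2 lay above its WT values, while those of Gtf2f1 and Gtf2h1 overlapped them. In the TFIIIC complex, which recruits RNA polymerase III, Gtf3c2 had the highest level, at 176, 133 and 202 CPM in WT against 183, 180 and 186 CPM in KO, and Gtf3c3 the lowest, at 51.7, 61.0 and 94.4 CPM in WT against 37.7, 60.2 and 76.5 CPM in KO. Gtf3c1, the largest TFIIIC subunit, had 93.1, 102 and 114 CPM in WT against 92.3, 105 and 112 CPM in KO. Gtf3a, which encodes TFIIIA, had 94.2, 138 and 87.7 CPM in WT against 118, 119 and 127 CPM in KO. None of these 4 separated the genotypes. Gtf2i, a signal-responsive factor, was the highest of the TFII-I family, at 101, 101 and 112 CPM in WT against 100, 104 and 97.7 CPM in KO. Its relative Gtf2ird1 was the lowest, at 22.3, 40.3 and 41.0 CPM in WT against 31.5, 39.4 and 36.6 CPM in KO. Among the other TAF-named genes Taf1d was the highest, at 166, 145 and 150 CPM in WT against 159, 154 and 149 CPM in KO, and Taf6l the lowest, at 18.0, 19.6 and 7.36 CPM in WT against 13.5, 7.67 and 10.2 CPM in KO. The genotypes overlapped at all 4 of these starts.

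Over the gene body the members lay closer to other genes. Their median WT level was 38.3 CPM per gene against 42.8 CPM for all genes, and 2.06 against 1.73 CPM per kb of annotated gene. The median gene length was 18.7 kb for the members and 22.9 kb for all matched genes. Per kb, the class medians lay close together, at 2.22 for TFIID, 2.16 for Mediator, 2.15 for TFIIA to TFIIH, 2.07 for TFIIIA and TFIIIC, 1.85 for the other TAF-named genes and 1.75 for the TFII-I family. Taf10, a TAF shared by TFIID and SAGA, stood apart at 44.2 ± 14.2 CPM per kb (SD, n = 3). Its gene is only 1.48 kb long and is overlapped by Ilk, which encodes an integrin-linked kinase, so reads of both genes can fall in it. The lowest density was that of Taf4b, the cell-type-restricted paralogue of Taf4 known from ovary and testis, at 0.55 ± 0.18 CPM per kb (SD, n = 3) over 177 kb.

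At the transcription end site (TES) the members' median WT level was 57.8 CPM, against 48.4 CPM for all tested genes. The class medians ran from 43.2 CPM in the TFII-I family and 43.4 CPM in TFIID to 73.7 CPM in TFIIA to TFIIH, so TFIID, the highest class at the start, was among the lowest at the end. The highest TES levels were 510 ± 117 CPM at Taf6l, 294 ± 59.8 CPM at Med9, 281 ± 66.9 CPM at Gtf3c2 and 274 ± 78.7 CPM at Gtf2h4 (SD, n = 3 each). Another gene lay within 1 kb of the annotated end of 3 of these 4, namely Tmem179b at Taf6l, Rasd1 at Med9 and Vars2 at Gtf2h4. Of the 62 members with a known strand, 22 had such a neighbour, and their end counts cannot be told apart from it. Med30 had the lowest level, 4.70 ± 1.54 CPM (SD, n = 3), and did not pass the filter on low counts there.

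The TSS signal was then set against the gene body signal per kb of the same gene in the 3 WT libraries, as a centred log2 ratio that is 0 at the median gene. Of the 69 members tested (Med25 did not pass the filter), 33 were higher and 8 lower than the median gene at an adjusted p under 0.05 in edgeR's quasi-likelihood test. Over all 11646 genes 32.9% were called higher and 31.6% lower, and the members' shares are 47.8% and 11.6%. TFIID had the highest class median, 1.16, with 9 of 14 genes higher and 2 lower. All 6 genes of TFIIIA and TFIIIC were higher, with a median of 0.92. The median was 0.31 for TFIIA to TFIIH, with 6 of 12 higher and 2 lower, and 0.07 for Mediator, with 10 of 27 higher and 3 lower. The other TAF-named genes had a median of 0.07, with 2 of 7 higher and 1 lower, and the TFII-I family 0.03, with none of 3 called. Without gene length, 38 members were called higher (55.1%, against 36.1% of all genes) and 20 lower (29.0%, against 36.6%). Gtf3c1 then stood at -0.67 (adjusted p = 0.00594, edgeR) and Gtf3c3 at 0.10 (adjusted p = 0.742, edgeR). The other genes of TFIIIA and TFIIIC stayed above the median gene. The class medians and class counts above depend on gene length and were not taken without it.

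**Figure D2:**
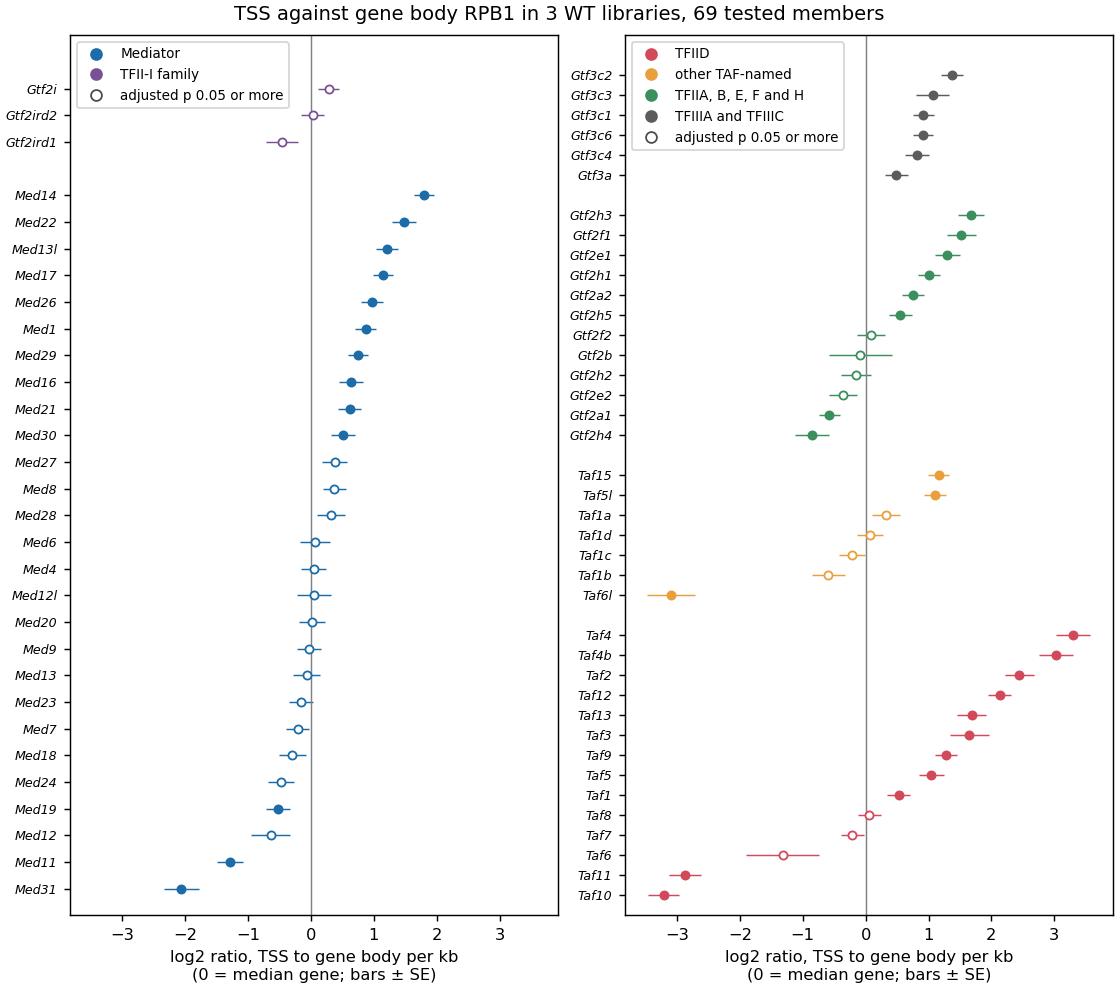
Centred log2 ratio of TSS counts to gene body counts per kb in the 3 WT libraries for each tested member, by class, with 0 at the median gene and filled points marking an adjusted p under 0.05 and bars the SE. TFIID holds both the highest values, at Taf4 and Taf4b, and the lowest, at Taf10.

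Taf4, at 3.30 ± 0.27 (SE), and Taf4b, at 3.03 ± 0.26, had the highest ratios of the members and stood at percentiles 99.9 and 99.8 of all genes. Taf2, a TFIID subunit that contacts the initiator element, followed at 2.44 ± 0.23 and Taf12 at 2.13 ± 0.18. Without the length term Taf4 stood at 1.76, Taf2 at 1.07, Taf12 at 2.35 and Taf4b at 0.026 (adjusted p = 0.929, edgeR), so the place of Taf4b rests on its length. With it, the adjusted p of these 4 in edgeR's test lay between 0.000107 and 0.000144. At the other end were Taf10 at -3.21 ± 0.25, Taf6l at -3.09 ± 0.38, Taf11 at -2.87 ± 0.25 and Med31, a conserved middle-module subunit, at -2.06 ± 0.28. Without the length term Taf10 and Med31 turned to 0.69 and 0.45, while Taf6l and Taf11 stayed negative at -2.22 and -1.44. Another gene overlaps each of these 4, namely Ilk at Taf10, Tmem179b at Taf6l, Anks1 at Taf11 and 4930563E22Rik at Med31. Among the highest, 4921531C22Rik starts within 1 kb of Taf4 on the opposite strand and 4930543D07Rik overlaps Taf4b. The part of these neighbours in the ratio was not tested. Taf4 and Taf4b are also among the longer members, and the ratio was higher at longer genes (Spearman's rho 0.45 over all 11646 genes and 0.29 over the 69 members, as a description, since both hold the length). Within 4 equal groups by gene length, from shortest to longest, the members' medians were -0.08, 0.51, 0.87 and 0.53, against -0.91, -0.04, 0.39 and 0.55 for all genes, so the members lay above other genes in the 3 shorter groups.

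Of the chosen examples, Med14 was higher at 1.79 ± 0.16, Gtf2f1 at 1.52 ± 0.23, Gtf2h1 at 1.01 ± 0.18, Gtf3c1 at 0.92 ± 0.16 and Med1 at 0.87 ± 0.16 (SE, adjusted p of 0.00238 or less in edgeR's test). Taf1, at 0.53 ± 0.18, and Gtf3a, at 0.49 ± 0.19, passed with adjusted p of 0.0357 and 0.0491. Without the length term Med14, Med1, Gtf3c1 and Taf1 turned negative, at -0.18, -0.023, -0.67 and -1.22. The calls of Taf1 and Gtf3a also rested on single libraries. Without WT replicate 1 the adjusted p was 0.270 for Taf1 and 0.196 for Gtf3a, and without WT replicate 2 it was 0.202 for Gtf3a. Med12 at -0.64, Med23 at -0.16, Taf7 at -0.21, Gtf2i at 0.28 and Gtf2b at -0.08 did not pass. In the KO libraries 36 of 70 members were higher (51.4%, against 36.2% of all genes) and 14 lower (20.0%, against 36.4%). The ratio takes every TSS window to be of one width and the counted gene body to span the RefSeq length. The bounds of neither region are given in the sources used here, and the size of the ratio depends on both.

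Knockout and WT glands were compared next, first at the TSS. RPB1 at the start of Taf4b rose in KO, and it was the only one of the 70 members to pass. Over all tested genes 0.339% (43 of 12682) were called, each of them higher in KO. The median log2 change was 0.01 over the members and -0.01 over all genes, with class medians from -0.09 in the other TAF-named genes to 0.05 in TFIIIA and TFIIIC. At an unadjusted p under 0.05 there were 2 members, which is 2.86%, against 5.57% of all genes. KO and WT values did not overlap at 7 members that were higher in KO (10.0%, against 6.47% of all genes) and at 1 that was lower, Med14 (1.43%, against 4.93%).

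At the TSS, Taf4b had 121, 114 and 133 CPM in the 3 WT libraries, against 260, 331 and 436 CPM in the 3 KO libraries, from 223, 110 and 416 counts and 462, 1210 and 1192 counts. Every KO library lay above every WT library. The log2 change was 1.48 ± 0.20 (SE), or 2.78-fold, with an adjusted p of 0.0101 in edgeR's quasi-likelihood test. By size it ranked 23 among the 43 called genes. Within the C-numbered mice, 1 of each genotype, the log2 difference was 1.10, and within the 99-numbered mice, 2 of each, it was 1.63. It was 1.14 within the 3 shallower libraries and 1.52 within the 3 deeper ones. The adjusted p stood above 0.05 when WT replicate 1 (0.112), WT replicate 2 (0.0862), KO replicate 2 (0.0738) or KO replicate 3 (0.0594) was left out, with log2 changes of 1.26 to 1.5.

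Along the rest of Taf4b the KO values were also higher on average, but the test was not passed. In the gene body, where reads of the overlapping 4930543D07Rik can also fall, WT had 101, 128 and 62.6 CPM against 174, 146 and 163 CPM in KO, again without overlap. The log2 change was 0.73 ± 0.24 (SE) with an adjusted p of 0.664 in edgeR's test. At the TES the values were 27.2, 27.5 and 12.2 CPM in WT against 42.9, 17.4 and 37.4 CPM in KO, which overlapped, and the log2 change was 0.56 ± 0.36 (adjusted p = 0.886, edgeR). The change in the ratio of TSS to gene body was 0.65 ± 0.35 (adjusted p = 0.955, edgeR), so a difference between the regions was not detected. Taf4b spans chr18:14783201-14960424 in GRCm38.p6, and its nearest neighbour in the tables, Kctd1 at 8261 bp, had a TSS log2 change of 0.31 ± 0.42 (adjusted p = 0.981, edgeR). No strand was listed for Taf4b, so its start was not placed and other starts within 1 kb of it were not looked for. Whether reads of 4930543D07Rik also fall at its TSS was not tested.

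Taf4 and Taf4b fill the same place in TFIID, so their levels were set side by side within each library. The TSS counts of Taf4 were 2.93, 2.37 and 3.07 times those of Taf4b in the WT libraries. In the KO libraries they were 0.94, 1.16 and 0.83 times those of Taf4b. Per kb of gene body the ratio was 2.16, 2.07 and 2.67 in WT against 1.17, 1.21 and 0.97 in KO. The genotypes overlapped in neither region. The Taf4b values alone did not overlap in either, so these ratios restate its rise and are no separate support for it. Taf4 itself had log2 changes of -0.07 ± 0.22 (TSS), -0.27 ± 0.19 (gene body) and -0.42 ± 0.24 (TES) (SE, adjusted p of 0.850 or more in edgeR's test).

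**Figure D3:**
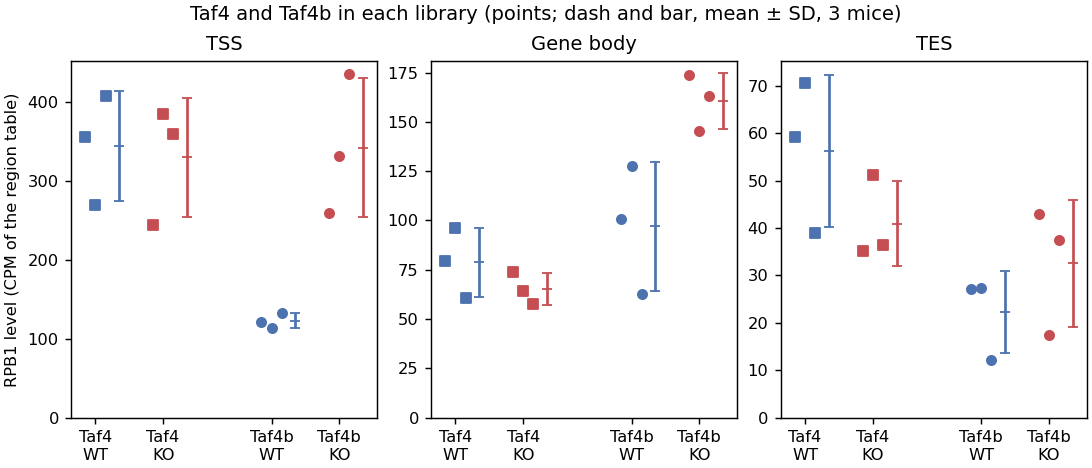
Levels in CPM of Taf4 and Taf4b in each of the 6 libraries for the TSS, the gene body and the TES, with the mean ± SD of each group beside its points. At the TSS the 3 KO libraries of Taf4b, at 260 to 436 CPM, lie above its 3 WT libraries, at 114 to 133 CPM, while those of Taf4 overlap.

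The other paralogous pairs kept no such split by genotype. The TSS ratio of Med13 to Med13l, which encode alternative kinase-module subunits, was 0.73, 0.45 and 0.41 in WT against 0.78, 0.27 and 0.39 in KO. That of Med12 to Med12l was 1.42, 0.83 and 0.34 in WT against 1.86, 0.49 and 0.56 in KO. For Taf5 to Taf5l, the TFIID and SAGA forms, it was 0.95, 1.48 and 1.49 in WT against 1.11, 1.5 and 1.03 in KO. At the TSS Taf6 exceeded Taf6l in every library, 3.97, 3.42 and 2.13 times in WT against 4.0, 3.11 and 2.75 times in KO. The TSS of Taf6l held only 19 to 33 counts per library. Per kb of gene body the ratio of Taf6 to Taf6l was 0.81, 0.88 and 1.23 in WT against 0.69, 1.01 and 1.06 in KO. There Med13 exceeded Med13l in every library, 1.39, 1.06 and 1.30 times in WT against 1.34, 1.58 and 1.35 times in KO. In all 4 pairs the ranges of WT and KO overlapped.

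The members next in line at the TSS did not pass the test. Gtf3c6, a small TFIIIC subunit, had 178, 138 and 190 CPM in WT against 254, 218 and 256 CPM in KO. The groups did not overlap, and its log2 change was 0.51 ± 0.17 (SE, adjusted p = 0.544, edgeR). The TFIIF subunits had log2 changes of 0.51 ± 0.25 at Gtf2f2 and 0.46 ± 0.23 at Gtf2f1. On the lower side the smallest p-values belonged to Med28 at -0.26 ± 0.19, Taf12 at -0.20 ± 0.17, Gtf2e2 of TFIIE at -0.30 and Taf6l at -0.48. All of these had adjusted p of 0.918 or more in edgeR's test. The examples Med1, Med12, Taf1, Gtf2h1, Gtf3c1, Gtf2i, Med23 and Med14 had log2 changes between -0.08 and 0.07, Taf7 and Gtf3a had 0.16 and 0.22, and Gtf2b had -0.50 ± 0.67.

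**Figure D4:**
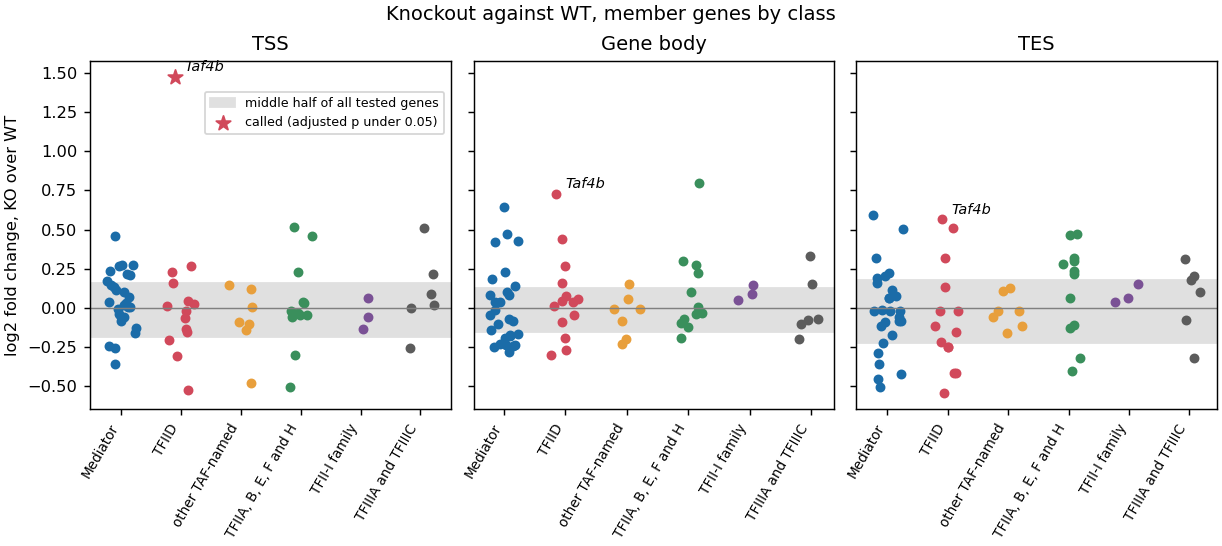
Log2 change of KO against WT for each tested member in the 3 regions, by class, with the middle 50% of all tested genes shaded and the called member as a star. Taf4b at the TSS, at 1.48, is the only star, and the class medians lie within 0.23 of 0 in every region.

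In the gene body no member passed, where 0.252% of all genes (32 of 12714) did. DESeq2 and limma-voom likewise called none. At an unadjusted p under 0.05 there were 5 members with edgeR (7.14%, against 5.05% of all genes), 6 with DESeq2 and 4 with limma-voom. The 5 were Med21, Gtf2b, Taf4b, Med31 and Med9, each with the higher value in KO. Med21, a middle-module subunit, had 29.7, 21.2 and 28.2 CPM in WT against 40.2, 45.9 and 37.8 CPM in KO. Its groups did not overlap, and the log2 change was 0.64 ± 0.17 (SE, adjusted p = 0.392, edgeR). Gtf2b, which encodes TFIIB, had 66.6, 54.4 and 90.7 CPM in WT against 96.6, 133 and 139 CPM in KO, with a log2 change of 0.80 ± 0.22 (adjusted p = 0.421, edgeR). Med31 stood at 0.47 ± 0.19, and its middle-module neighbour Med9 at 0.42 ± 0.18. The smallest p-values on the lower side were those of Med6 at -0.28, Med13l at -0.23, Taf1 at -0.19 and Med26 at -0.19. KO lay above WT without overlap at 8 members (11.4%, against 6.51% of all genes) and below it at 6 (8.57%, against 3.87%). The median over the members was -0.01 and that over all genes -0.02, and the other examples, apart from Taf7 at 0.44, Gtf3a at 0.33, Med12 at -0.25 and Gtf2f1 at 0.22, lay between -0.17 and 0.15.

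At the TES, none of the 69 tested members passed, against 0.915% of all genes (116 of 12680). DESeq2 and limma-voom called none as well, and 5, 4 and 6 members had an unadjusted p under 0.05 with edgeR, DESeq2 and limma-voom. The edgeR count is 7.25%, against 6.85% of all genes. Taf5, the propeller-bearing TFIID scaffold, had 103, 110 and 71.3 CPM in WT against 67.5, 69.9 and 56.1 CPM in KO, and Med13l had 72.1, 76.5 and 73.9 CPM in WT against 43.7, 53.0 and 59.0 CPM in KO. Both had every KO value below every WT value, with log2 changes of -0.55 ± 0.23 and -0.50 ± 0.22 (adjusted p = 0.538 and 0.583, edgeR). Med25 at 0.50 ± 0.23, Med9 at 0.60 ± 0.28, Gtf2a1 of TFIIA at 0.47 ± 0.22 and Gtf2b at 0.46 ± 0.24 had the smallest p-values on the higher side, and Med20 at -0.42 and Gtf2h5 at -0.40 followed on the lower side. Within 1 kb of the annotated end lie Atp5md at Taf5, Gm20517 at Med20 and Rasd1 at Med9. The end counts of these members cannot be told apart from those of their neighbours. KO values lay above WT without overlap at 3 members (4.35%, against 6.69% of all genes) and below at 4 (5.80%, against 4.83%). Class medians were 0.23 in TFIIA to TFIIH and -0.13 in TFIID, and -0.02 over the members as over all genes. Among the examples not named yet, Med1, Med12, Med14, Med23, Taf1, Taf7, Gtf2f1, Gtf2h1, Gtf2i, Gtf3a and Gtf3c1 lay between -0.25 and 0.24.

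The distribution of RPB1 along the genes was compared through ratios of regions within each library. For TSS to gene body, 0 of 70 members passed, as did 0.00% of all genes, with 0 members under an unadjusted p of 0.05 in edgeR's test against 3.64% of all genes. Limma on the log2 ratio also called none, with 2 members under that p. The largest shifts by p were Gtf2f2 at 0.66 ± 0.32 and Med6, a head subunit, at 0.59 ± 0.29 on the higher side, ahead of Taf4b and Gtf3c6 at 0.36, and on the lower side Taf11 at -0.57 ± 0.29, Med21 at -0.38, Gtf2h5 at -0.33 and Gtf2b at -1.62 ± 1.02 (SE, all adjusted p = 0.955, edgeR). For TES to gene body, 0 of 69 members passed, against 0.0158% of all genes (2 of 12677). There, 3 members had an unadjusted p under 0.05 with edgeR (4.35%, against 5.70% of all genes), and limma called none, with 3 under that p. Those 3 with edgeR were Taf7 at -0.69 ± 0.21, Gtf2h5, the smallest TFIIH subunit, at -0.70 ± 0.25 and Taf5 at -0.56 ± 0.22, with adjusted p of 0.751 to 0.839. Med31 at -0.48 came next, and Med26 at 0.38, Taf13 at 0.61, Med25 at 0.45 and Gtf2h3 at 0.42 led the higher side. Taf7 is overlapped by Gm37013, Gm38666 and Gm38667, and Taf5 by Atp5md, so reads of those genes can enter the ratios.

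At some members the libraries differed more by depth than by genotype. Gtf2b was the clearest case, with TSS levels of 168 and 153 CPM in WT replicates 1 and 2 and 189 CPM in KO replicate 1, but 37.4 CPM in WT replicate 3 and 37.5 and 28.5 CPM in KO replicates 2 and 3. The mean of the 3 shallower libraries was 170 CPM and that of the 3 deeper ones 34.5 CPM, a ratio of 4.93. The counts behind them were 308, 148 and 336 in the shallower libraries and 117, 137 and 78 in the deeper ones, so the deeper libraries held fewer reads there even before scaling. Its gene body did not follow, at 54.4 to 96.6 CPM in the shallower and 90.7 to 139 CPM in the deeper libraries. Taf6, a histone-fold TAF, had 71.3, 67.2 and 54.0 CPM in the shallower and 15.7, 23.8 and 28.2 CPM in the deeper libraries. Gtf2f1 went the other way, with 174, 154 and 199 CPM in the shallower and 261, 314 and 301 CPM in the deeper libraries. At the TSS 13 members were higher in all 3 shallower libraries than in any deeper one (18.6%, against 17.7% of all genes), and 15 were lower (21.4%, against 15.7%). Depth, the Gm10800 share and this split move together in the 6 libraries, and their part in it was not tested.

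**Figure D5:**
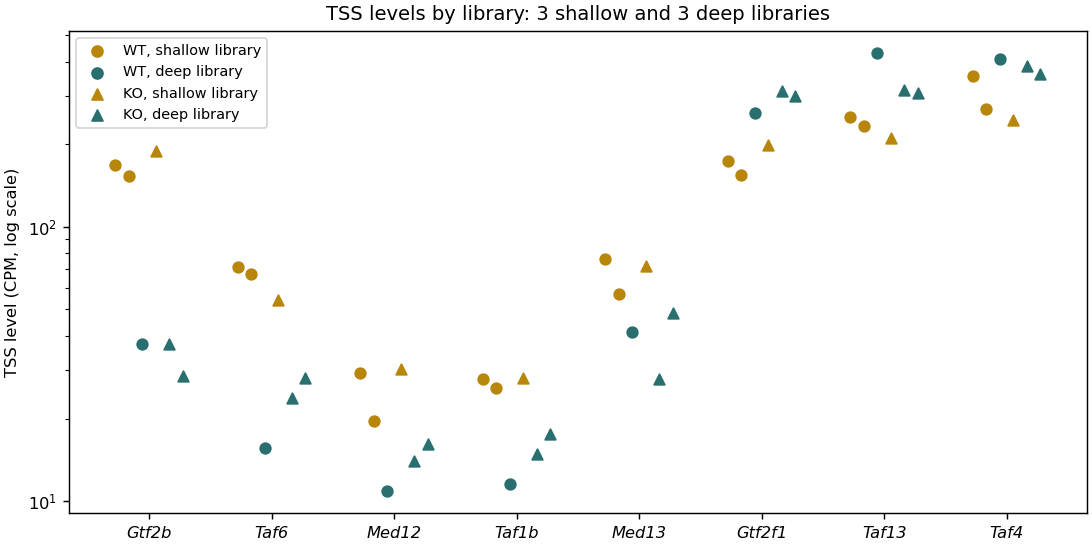
TSS levels in CPM, on a logarithmic axis, of 8 members in the 6 libraries, coloured by depth, with circles for WT and triangles for KO. Gtf2b lies at 153 to 189 CPM in the shallower and 28.5 to 37.5 CPM in the deeper libraries of both genotypes, while Gtf2f1, Taf13 and Taf4 are higher in the deeper ones.

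Partners that the symbol rule leaves out were drawn from a list of 23 genes, of which 22 were tested (Cdk19 was not in the tables). They include the TATA-binding protein Tbp, its relative Tbpl1, the repressor Dr1, the Mediator kinase parts Cdk8 and Ccnc, the TFIIH kinase and helicase genes and the factors of RNA polymerases I and III. None passed between KO and WT at the TSS, over the gene body, at the TES or in either ratio in edgeR's test, and the numbers at an unadjusted p under 0.05 were 0, 1, 0, 2 and 0. The gene body one was Tbpl1 at 0.41 ± 0.17 (adjusted p = 0.934), and the TSS to gene body ratio had Tbpl1 at -0.86 ± 0.32 and Snapc5, of the small nuclear RNA activator, at -0.47 ± 0.20 (both adjusted p = 0.955). In WT, 10 of the 22 had a TSS to gene body density above that of the median gene and 6 below it. The TFIIH helicase gene Ercc3 was highest at 2.47 ± 0.18, followed by the TBP remodeller Btaf1 at 2.01 ± 0.17 and Dr1 at 1.79 ± 0.16, while Tbp itself was lower, at -0.86 ± 0.20 (adjusted p of 0.00599 or less, edgeR).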

How the data were processed

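The authors deposited whole-number read counts per gene at the TSS, over the gene body and at the TES for 6 ChIP libraries, together with log2 CPM values, which were deposited by the authors and not used here. Per the submitters' processing notes, reads were handled with edgeR, limma, HOMER, MACS2, BWA, Picard, Trimmomatic and bcl2fastq 2.20, named without order, on GRCm38 (mm10). Neither the region bounds nor the counting rule is given in the sources used here, and no input library was analysed here. The members, gene lists and tests were chosen with earlier results of these data known.

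Each region's table was filtered with filterByExpr (minimum count 10, minimum total 15), scaled by TMM and tested with edgeR 4.0.16 (quasi-likelihood, R 4.3.3), with Benjamini-Hochberg adjustment over the whole table and calls at an adjusted p under 0.05. Region ratios were tested as region by genotype terms with a term for each library, and WT density with gene length from RefSeq as an offset, centred on the median gene. DESeq2 1.42.0, limma 3.58.1, other scalings, filters, covariates and left-out libraries were alternatives, and the tests were tried on simulated data. Named were the called members, 12 chosen examples, the highest and lowest member of each class at the TSS, the 4 smallest p-values per direction in each genotype test and the 4 highest and lowest densities; genes outside this rule (Med30, Gtf2h4 and Taf6 among them) were chosen after their values were seen. All 70 members and 12523 of 12718 genes matched RefSeq on GRCm38.p6. The genotype p-values set the difference between KO and WT against the spread among the 3 mice within each genotype. Those of the WT density set the TSS against the gene body within the 3 WT libraries. The replicate numbers of the titles were not used as pairs in the main tests. Samples were grouped by their titles.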

Additional observations from a re-analysis of the deposited data

How the results depend on the processing

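The rise of Taf4b at the TSS kept its direction under every alternative run, with log2 changes of 1.26 to 1.72. The number of members called at the TSS was 0 without WT replicate 1, WT replicate 2, KO replicate 2 or KO replicate 3, and 1 under the others, so that leaving out single libraries gave 0 to 1. The adjusted p of Taf4b was 6.26e-10 with DESeq2, 0.0164 with limma-voom, 8.40e-06 with depth class as a covariate and 0.00152 in the 99-numbered mice alone, a setting chosen after seeing the data. Scaling the 3 regions together moved the median log2 change of all genes by 0.25 at the TSS, to 0.24, and to -0.12 in both other regions; relative to the median, Taf4b stood at 1.48 either way. Under it Taf12 at the TSS turned to 0.041. Counts over all genes were less stable, from 5 to 158 (TSS), 0 to 179 (gene body) and 61 to 194 (TES).

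With the replicate number as a block, 1 member was called at the TSS (Taf4b, adjusted p 0.00029) and 0 in the other regions and ratios, with 100, 0 and 194 genes called in all for the TSS, gene body and TES. Deviations of same-numbered libraries correlated at 0.44, -0.21 and 0.35 at the TSS, and 3 of the 6 libraries correlated best with their own number. The correlations were 0.08, -0.59 and 0.27 in the gene body and 0.04, -0.32 and 0.20 at the TES, with 2 of the 6 libraries in each. Replicate 1 of both genotypes was shallower and replicate 3 of both was deeper, while replicate 2 was shallower in WT and deeper in KO. Replicate 1 was also the C-numbered mouse of each genotype. Pairing, depth and the kind of mouse number thus cannot be told apart by this check.

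In the WT density, 34 to 47 members were called when a WT library was left out, 27 to 36 higher and 7 to 11 lower (49.3 to 67.1% of members, against 50.5 to 72.3% of all genes). Without gene length the values of 24 of the 69 members turned sign, among them 9 of the 20 named by rule, to 0.69 for Taf10, 0.45 for Med31, -0.023 for Med1, -0.18 for Med14, -1.22 for Taf1, 2.36 for Taf7, 0.19 for Gtf2b, -1.57 for Gtf2i and -0.67 for Gtf3c1, as the offset itself was removed, and Taf4b stood at 0.026. Med23 was 0.10 in the KO libraries, and Gtf2b ranged from -0.54 to 0.73 over the left-out WT libraries. Gtf2b passed as higher without WT replicate 3 (0.73, adjusted p = 2.03e-05, edgeR) and as lower in the KO libraries (-1.65, adjusted p = 0.0349, edgeR). Taf7 in the KO libraries (-0.43, adjusted p = 0.0439, edgeR) and Med12 without WT replicate 1 (-1.04, adjusted p = 0.0482, edgeR) also passed as lower. The cause was not tested. At the TSS, Med25 rested on 14 to 42 counts per library.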
